A study of Homo sapiens with 6 samples.

Results

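Sugars and monocarboxylates such as lactate and pyruvate cross the membranes of prostate cancer cells through a few families of solute carriers. The 41 genes of these families were chosen from the 58024 genes of the deposited table by their symbols alone: every numbered member of SLC2A (hexose facilitators, 14 genes), SLC5A (sodium-coupled carriers of sugars, inositol, vitamins and iodide, 12 genes), SLC16A (monocarboxylate carriers, 14 genes) and SLC50A (1 gene). RNA-Seq libraries came from C4-2B cells, a human prostate cancer line descended from LNCaP xenografts, as 3 parental libraries (C42-B) and 3 libraries of enzalutamide resistant cells (C42-B-ENZU). Enzalutamide is an antiandrogen drug. Both groups grew in RPMI-1640 with serum. The parental controls were described as given DMSO vehicle, at a concentration on which the sources differ. The resistant cells were passaged for at least 6 months in enzalutamide rising from 1 to 20 µM, kept in 5 µM, and exposed to 10 µM for RNA extraction. The labels leave unclear whether the parental cells also met 10 µM drug at extraction, and the difference between groups therefore joins resistance with drug exposure. The resistant line was the pooled surviving population of 1 selection, and nothing states that the 3 libraries of a group came from separate cultures, so the p-values measure only the spread between these libraries.

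Most carriers of the SLC2 family are facilitators that let sugars such as glucose or fructose run down their gradients, while its inositol carrier SLC2A13 is proton-coupled. SLC5 carriers pull their substrates in with sodium. Carriers of the SLC16 family move lactate, pyruvate and ketone bodies together with a proton, and some members carry other solutes such as aromatic amino acids instead. Cells with fast glycolysis take up glucose mainly through SLC2A1 and export lactate through SLC16A3 and SLC16A1, which need the chaperone basigin (BSG) to reach the cell surface.

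Values are FPKM, in which the fragments of a gene are divided by its length and by the mapped reads of its library, so levels can be compared between genes. The 6 columns summed to between 792975 and 870110 FPKM, with 21956 to 24080 genes above 0 in the parental and 23360 to 27153 in the resistant libraries. Read totals were not used here. Spacing of the lowest values gave a rough estimate of 13500000 to 20400000 reads for the parental and 14100000 to 17800000 reads for the resistant libraries if fragments were 200 bases long, at which 1 read on a 2000-base transcript is worth 0.0272 to 0.0412 FPKM. Of the 9 prostate luminal markers, 2 rose, KRT8 among them, and 6 fell, among them KLK3 with a log2 fold change of −5.85, and HOXB13, which did not pass, was at a mean of 103 FPKM in parental and 102 FPKM in resistant libraries. Fibroblast markers (6 genes) summed to 8.04–10.9 FPKM in parental and 8.34–15.0 FPKM in resistant libraries. DCN was listed at 0 in every parental library and rose to a mean of 3.92 FPKM, LUM also rose, and PDGFRB fell. Immune and endothelial markers (7 genes) summed to 0.568–2.19 FPKM in parental and 0.0946–0.616 FPKM in resistant libraries, with CD3E listed at 0 throughout. Their part in the carrier results was not tested, and in bulk RNA fewer cells of a type and less RNA per cell cannot be told apart.

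In the resistant cells the most abundant carriers of sugars and lactate, SLC16A3, SLC50A1, SLC16A1 and SLC2A1, were lower. The hexose facilitators SLC2A8 and SLC2A11, also above 10 FPKM in every library, did not pass the threshold given below. The carriers that were higher had been scarce or absent in the parental cells. The lactate exporter SLC16A3 was 4.17-fold lower (179.5 ± 46.9 to 43.0 ± 2.91 FPKM, SD, n = 3 per group) and the glucose facilitator SLC2A1 was 2.66-fold lower (76.9 ± 6.08 to 29.0 ± 0.859 FPKM). The lactate carrier SLC16A1 was 2.43-fold and the Golgi sugar carrier SLC50A1 1.80-fold lower. SLC5A5, the sodium iodide symporter, rose from a mean of 0.0216 to 6.00 FPKM, and SLC2A10, a facilitator of the secretory pathway, rose 15.1-fold. SLC16A8, a lactate carrier best known from retinal pigment epithelium, was listed at 0 in all parental libraries and reached 6.83–11.8 FPKM in the resistant ones. Of the 41 carriers, 29 averaged 0.1 FPKM or more across the 6 libraries and were tested. By limma on log2(FPKM + 0.1) with Benjamini-Hochberg adjustment over all 24468 genes tested (adjusted p below 0.05), 8 carriers were higher and 13 lower, against 22.1% of all tested genes higher and 22.3% lower. The groups did not overlap for 23 of the 29, against 54.8% of all tested genes. At least 2-fold and past the threshold were 8 carriers higher and 8 lower, against 15.0% and 13.6% of all tested genes. The median log2 fold change of the 29 was −0.23, beside −0.05 over all tested genes. Without genes listed at 0 throughout a group it was −0.52, beside −0.08. With no filter on low values the median was 0.0212 over all 41, beside 0.0546 over all genes, so its direction depends on the scarce carriers included. Without resistant replicate 2 the median was −0.43, beside −0.09 over all genes.

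**Figure D1:**
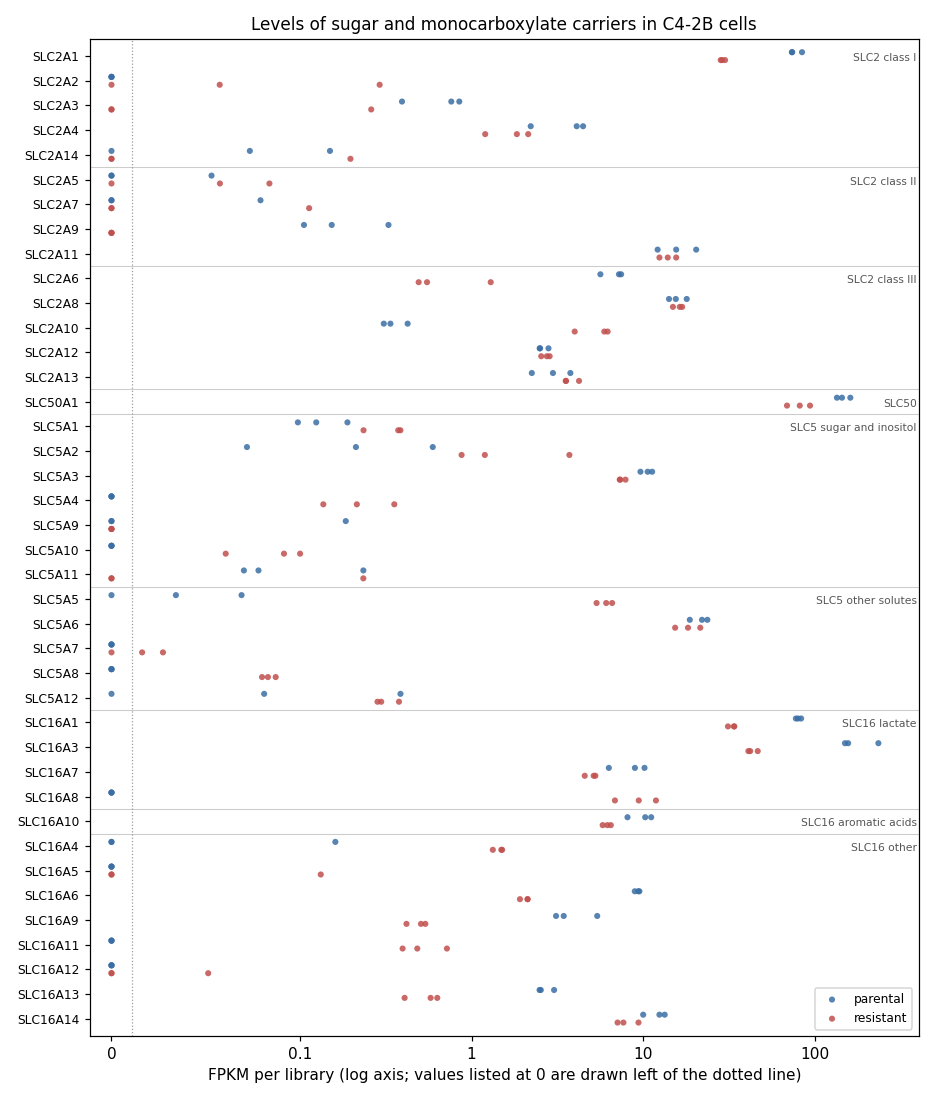
FPKM of 40 of the 41 carriers in each library on a log axis, with parental libraries in blue, resistant libraries in red and values listed at 0 left of the dotted line, grouped by family and class. The carriers above 10 FPKM sit to the left in red or overlap, while SLC16A8, SLC5A5 and SLC2A10 appear to the right in red.

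Promoter sequences are shown for 3 abundant carriers that fell (SLC16A3, SLC50A1, SLC2A1) and for 3 that rose from a low level (SLC2A10, SLC16A11, SLC16A8), so that the start regions of both kinds can be read side by side. They are RefSeq windows on GRCh38.p14 of 250 bases before to 50 bases after an annotated start site, written 5′ to 3′ on the gene's strand. Capitals mark each ACGTG, the core of the hypoxia response element, or its reverse complement CACGT. SLC16A11 was picked after its values were seen, because its window holds the E-box CACGTG, which contains the core on both strands. SLC16A3 has 5 such windows and SLC50A1 has 2, and the window shown is the only one of each that holds a match.
SLC16A3 (chr17:82228792-82229091, plus strand): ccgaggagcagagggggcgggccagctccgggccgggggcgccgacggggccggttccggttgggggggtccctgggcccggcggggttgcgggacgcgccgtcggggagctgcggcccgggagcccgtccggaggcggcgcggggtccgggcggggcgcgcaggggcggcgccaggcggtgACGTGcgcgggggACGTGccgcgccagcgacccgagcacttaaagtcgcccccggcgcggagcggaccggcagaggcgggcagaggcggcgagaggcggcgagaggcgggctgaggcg
SLC50A1 (chr1:155135125-155135424, plus strand): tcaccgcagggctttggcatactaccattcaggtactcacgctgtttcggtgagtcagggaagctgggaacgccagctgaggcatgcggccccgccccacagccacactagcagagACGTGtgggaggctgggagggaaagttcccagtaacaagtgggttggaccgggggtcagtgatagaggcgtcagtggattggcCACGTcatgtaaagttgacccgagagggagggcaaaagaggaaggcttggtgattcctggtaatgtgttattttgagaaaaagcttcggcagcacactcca
SLC2A1 (chr1:42958819-42959118, minus strand): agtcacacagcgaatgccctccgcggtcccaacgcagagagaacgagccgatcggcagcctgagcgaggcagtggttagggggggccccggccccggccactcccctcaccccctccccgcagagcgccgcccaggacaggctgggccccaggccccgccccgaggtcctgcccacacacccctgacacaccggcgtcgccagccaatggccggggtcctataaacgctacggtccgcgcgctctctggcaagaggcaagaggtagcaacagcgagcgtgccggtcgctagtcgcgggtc
SLC2A10 (chr20:46709399-46709698, plus strand): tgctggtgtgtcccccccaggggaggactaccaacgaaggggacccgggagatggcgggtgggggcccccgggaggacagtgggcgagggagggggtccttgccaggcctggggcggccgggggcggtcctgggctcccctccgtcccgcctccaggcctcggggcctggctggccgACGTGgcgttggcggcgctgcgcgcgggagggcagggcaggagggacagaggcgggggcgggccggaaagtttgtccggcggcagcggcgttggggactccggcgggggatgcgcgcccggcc
SLC16A11 (chr17:7044043-7044342, minus strand): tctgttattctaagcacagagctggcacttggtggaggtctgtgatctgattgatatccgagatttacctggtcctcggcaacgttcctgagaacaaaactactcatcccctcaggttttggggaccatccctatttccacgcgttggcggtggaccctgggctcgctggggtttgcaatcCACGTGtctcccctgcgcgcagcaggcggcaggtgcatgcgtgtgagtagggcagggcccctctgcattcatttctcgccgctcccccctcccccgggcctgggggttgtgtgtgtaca
SLC16A8 (chr22:38084135-38084434, minus strand): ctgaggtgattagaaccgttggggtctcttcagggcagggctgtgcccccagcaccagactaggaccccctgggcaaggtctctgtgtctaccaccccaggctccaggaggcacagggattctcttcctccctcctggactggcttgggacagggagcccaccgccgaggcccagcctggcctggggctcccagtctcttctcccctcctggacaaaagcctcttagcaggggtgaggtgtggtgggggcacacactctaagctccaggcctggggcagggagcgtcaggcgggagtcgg

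The 31 carriers with an entry had 42 windows in all. Both windows with a match on the abundant side, those of SLC16A3 and SLC50A1, hold 2 matches each, whereas the SLC2A1 window holds 0. Among the carriers that rose, the SLC2A10 window holds 1 match, the SLC16A11 window 2 that overlap in its E-box, and the SLC16A8 window 0. ACGTG or its reverse complement was present in 9 of the 42 windows, against 21.4% of 35116 RefSeq windows of the same length. It was in 4 of 16 windows of carriers that fell and in 2 of 7 windows of carriers that rose. The E-box CACGTG was in 3 of the 42, against 7.26% of all windows, and AGAACA, searched as a steroid hormone response motif, in 3 of the 42, against 14.8%. These are letter matches in short windows and carry no measure of binding. Among the 10 carriers without a window were SLC16A1, SLC16A5, SLC16A6, SLC16A13, SLC2A3, SLC2A4, SLC2A7, SLC5A9 and SLC5A11.

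In the SLC16 family, all 4 carriers with lactate or pyruvate as their main substrate differed between the groups, 3 lower and 1 higher. SLC16A3 (MCT4, chr17:82217934-82261129 in the GENCODE 44 annotation of GRCh38) exports lactate from glycolytic cells at high capacity. The parental libraries held 156, 149 and 234 FPKM and the resistant libraries 46.3, 40.9 and 41.9 FPKM. The highest resistant library lay far below the lowest parental one, and parental replicate 2 stood above its group. The log2 fold change was −2.03 (SE 0.18, limma with Benjamini-Hochberg adjustment, adjusted p = 2.61e-04). SLC16A1 (MCT1, chr1:112911847-112957593) carries lactate in either direction. It stood at 79.5, 77.3 and 82.9 FPKM in parental and 33.7, 31.1 and 33.9 FPKM in resistant libraries, a tight pair of groups with a log2 fold change of −1.28 (SE 0.07, limma, adjusted p = 5.01e-05). SLC16A7 (MCT2, chr12:59596029-59789855), which has a high affinity for pyruvate, was at 8.93, 6.30 and 10.2 FPKM against 4.56, 5.26 and 5.14 FPKM. These groups did not overlap but came within about 1 FPKM of each other, and the 1.70-fold difference (log2 fold change −0.73, SE 0.20, limma adjusted p = 0.0277) passed the threshold in all 6 libraries together and without parental replicate 1. Without any other single library the adjusted p was 0.0625 to 0.0852.

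SLC16A8 (MCT3, chr22:38078134-38084184, minus strand) was the only carrier listed at 0 in every parental library that reached 1 FPKM in the resistant ones. Its values there were 11.8, 9.40 and 6.83 FPKM, and no fold change is given against a group at 0 (limma with Benjamini-Hochberg adjustment, adjusted p = 2.89e-05). The call held under every alternative tried, with adjusted p-values from 1.72e-05 to 0.00122. At a mean of 9.36 FPKM SLC16A8 stood above SLC16A7 in each resistant library.

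The summed level of the 4 lactate carriers reached 244, 233 and 327 FPKM in parental and, 2.97-fold lower, 96.4, 86.6 and 87.7 FPKM in resistant libraries. The makeup of that sum differed as well. SLC16A3 made up 63.8%, 64.1% and 71.5% of it in parental libraries but 48.1%, 47.2% and 47.7% in resistant libraries. SLC16A8 contributed 12.3%, 10.9% and 7.79% in the resistant libraries. The ratio of SLC16A3 to SLC16A1 was 1.96, 1.93 and 2.82 in parental and 1.38, 1.31 and 1.24 in resistant libraries, so that the decrease of SLC16A3 was the greater in these libraries. These sums and ratios are descriptions with no test.

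**Figure D2:**
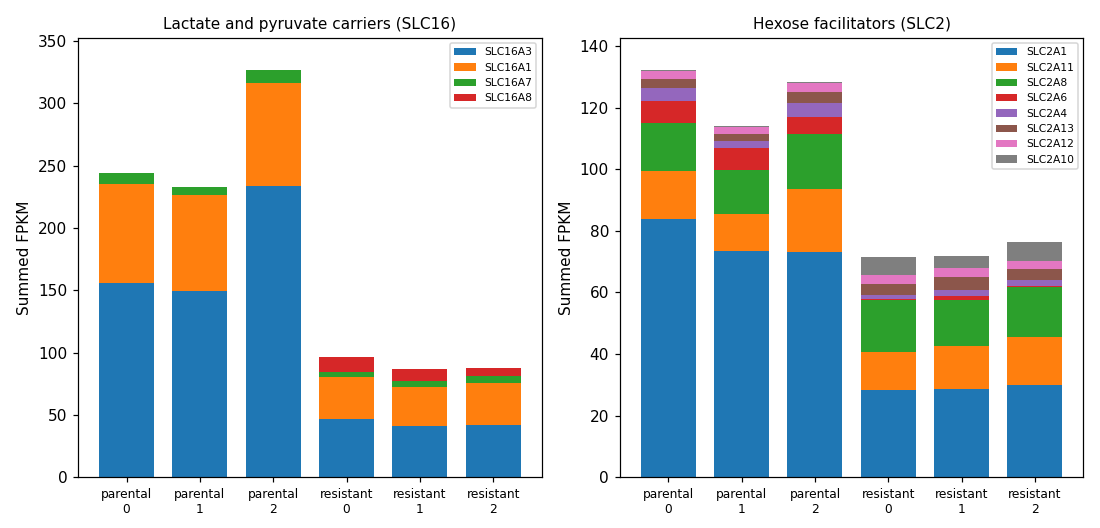
Stacked bars of summed FPKM in each library, for the 4 lactate carriers on the left and 8 carriers of the SLC2 family on the right. The lactate carrier bars are 233–327 FPKM in parental and 86.6–96.4 FPKM in resistant libraries, and the shorter SLC2 bars of the resistant libraries differ from the parental ones mostly by the SLC2A1 segment.

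Among the class I glucose facilitators, SLC2A1 carried nearly all of the signal. SLC2A1 (GLUT1, chr1:42925353-42958893, minus strand) is the basal glucose uptake carrier of most dividing cells. It stood at 83.9, 73.5 and 73.2 FPKM in parental and 28.2, 28.7 and 29.9 FPKM in resistant libraries, with no overlap and a log2 fold change of −1.40 (SE 0.08, limma with Benjamini-Hochberg adjustment, adjusted p = 5.73e-05). SLC2A4 (GLUT4), the insulin-responsive facilitator of muscle and fat, was at 4.09, 2.21 and 4.46 FPKM against 1.20, 2.13 and 1.83 FPKM. Parental replicate 1 nearly touched the resistant range, and the log2 fold change of −0.99 (95% interval −1.84 to −0.14, limma adjusted p = 0.0621) did not pass the threshold with all libraries. Without parental replicate 1 the adjusted p was 0.0209. SLC2A3 (GLUT3), a high-affinity facilitator, was at 0.393, 0.848 and 0.762 FPKM against 0.260, 0 and 0 FPKM. Its call (log2 fold change −2.27, limma adjusted p = 0.0299) rested on levels of under 1 FPKM, and the adjusted p was 0.085 to 0.0895 without parental replicate 1 or 2 or resistant replicate 1 or 2. SLC2A14, a near-identical copy of SLC2A3, was at 0, 0.150 and 0.0511 FPKM against 0.197, 0 and 0 FPKM, and reads shared by the pair make both uncertain. SLC2A2 (GLUT2), the facilitator of liver and pancreatic beta cells, was at 0 in every parental library and at 0.291, 0 and 0.0341 FPKM in the resistant ones.

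The class III facilitators, which act mostly on inner membranes, moved in both directions. SLC2A6 (chr9:133471094-133479127), a lysosomal hexose carrier, fell from 7.42, 7.21 and 5.62 FPKM to 0.550, 1.29 and 0.492 FPKM, 8.68-fold lower (log2 fold change −3.07, SE 0.37, limma with Benjamini-Hochberg adjustment, adjusted p = 0.000947). SLC2A10 (chr20:46709649-46736347), linked to dehydroascorbic acid transport and mutated in arterial tortuosity syndrome, rose from 0.308, 0.337 and 0.424 FPKM to 5.92, 3.98 and 6.19 FPKM (log2 fold change 3.56, SE 0.28, limma, adjusted p = 1.68e-04). The gap between the groups was wide for both genes. The remaining 3 did not pass the threshold. SLC2A8, an intracellular hexose carrier, was at 15.4, 14.1 and 17.9 FPKM against 16.8, 14.9 and 16.3 FPKM, with a 95% interval of the log2 fold change from −0.27 to 0.31. SLC2A12 stood at 2.49–2.80 against 2.54–2.85 FPKM (interval −0.37 to 0.48), and the proton-coupled inositol carrier SLC2A13 at 2.24–3.76 against 3.53–4.22 FPKM (interval −0.22 to 0.91). The sum over class III was accordingly alike in size, at 26.4–30.5 FPKM in parental and 27.1–29.7 FPKM in resistant libraries.

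The class II facilitator SLC2A11, which carries glucose and fructose, was at 15.5, 12.1 and 20.3 FPKM against 12.4, 13.9 and 15.5 FPKM and did not pass the threshold (interval of the log2 fold change −0.66 to 0.32). SLC2A5, the fructose facilitator, SLC2A7 and the urate carrier SLC2A9 stayed under 0.5 FPKM in every library and were not tested. SLC2A9 was above 0 in the 3 parental libraries (0.106–0.328 FPKM) and listed at 0 in the 3 resistant ones. Over the whole SLC2 family, 9 genes were tested, 1 rose, 3 fell and 5 did not pass, so 4 of 9 were called, a share like the 44.4% of all tested genes called in either direction. The family sum was 133, 115 and 129 FPKM in parental and 72.4, 71.9 and 76.4 FPKM in resistant libraries. SLC2A1 made up 63.1%, 63.7% and 56.6% of that sum in parental and 39.0%, 40.0% and 39.2% in resistant libraries.

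SLC50A1 (SWEET1, chr1:155135344-155138857), the only human member of the sweet family and a sugar carrier of the Golgi, was the carrier with the highest level in the resistant cells. It fell from 134, 143 and 160 FPKM to 68.6, 93.4 and 81.4 FPKM (log2 fold change −0.85, SE 0.13, limma with Benjamini-Hochberg adjustment, adjusted p = 0.00248). In the parental libraries its range overlapped that of SLC16A3. In the resistant libraries SLC50A1, SLC16A3, SLC16A1 and SLC2A1 followed each other in that order with no overlap between neighbours, and SLC5A6, SLC2A8 and SLC2A11 came next. These 4 leading carriers held 77.6%, 78.7% and 80.2% of the summed FPKM of all 41 in parental and 60.6%, 63.9% and 60.8% in resistant libraries. The sum over all 41 was 584, 563 and 686 FPKM against 292, 304 and 308 FPKM, 2.03-fold lower.

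**Figure D3:**
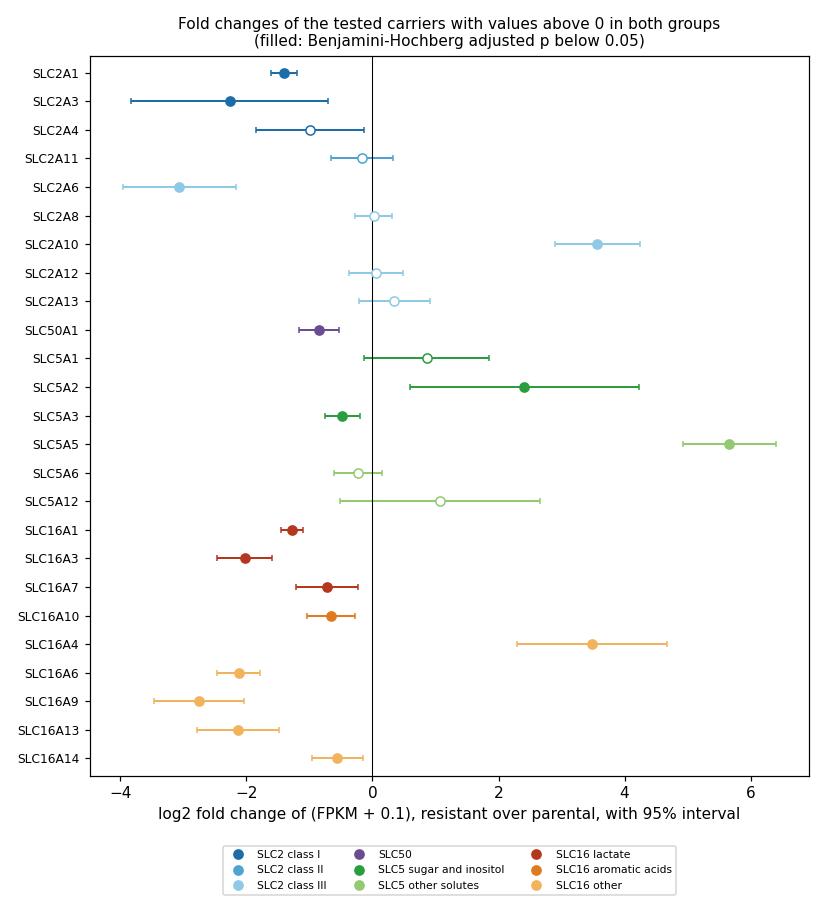
Log2 fold change of FPKM + 0.1, resistant over parental, with its 95% interval, for 25 tested carriers above 0 in both groups, coloured by class and filled where the adjusted p was below 0.05. The points of SLC2A10 and SLC5A5 lie furthest right at 3.56 and 5.66, and SLC2A6 lies furthest left at −3.07.

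Apart from SLC5A3 and SLC5A6, the sodium-coupled carriers were scarce in the parental cells, and the 3 higher calls among them came from low starting levels. SLC5A5 (chr19:17871945-17895174), which concentrates iodide in the thyroid, was at 0, 0.0190 and 0.0458 FPKM in parental and 6.08, 6.58 and 5.34 FPKM in resistant libraries (log2 fold change 5.66 on the scale of FPKM + 0.1, SE 0.31, limma with Benjamini-Hochberg adjustment, adjusted p = 4.32e-05). The parental values are those of 1 or a few reads, so the size of the change depends on the added 0.1. SLC5A2 (SGLT2, chr16:31483002-31490860), the glucose reabsorption carrier of the kidney, was at 0.212, 0.594 and 0.0492 FPKM against 1.19, 0.874 and 3.71 FPKM. Its groups did not overlap but its spread was wide (log2 fold change 2.41, SE 0.75, limma adjusted p = 0.0408). Without any single library other than parental replicate 1 its adjusted p was 0.0535 to 0.119. SLC5A4, named after its values were seen, was listed at 0 in all parental libraries and at 0.137, 0.215 and 0.355 FPKM in resistant libraries (limma adjusted p = 0.0261). Its adjusted p was 0.0556 to 0.0712 without any one of the parental libraries, 0.0652 with a pseudocount of 1 FPKM and 0.0840 with quantile normalization. SLC5A1 (SGLT1), the intestinal glucose carrier, did not pass the threshold at 0.0974–0.189 against 0.235–0.385 FPKM (interval of the log2 fold change −0.13 to 1.85).

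More abundant members of the SLC5 family carry inositol and vitamins. SLC5A3 (SMIT1, chr21:34073578-34106260), which brings in inositol, fell from 9.62, 11.2 and 10.6 FPKM to 7.28, 7.33 and 7.87 FPKM, a difference of 1.40-fold (log2 fold change −0.48, SE 0.12, limma with Benjamini-Hochberg adjustment, adjusted p = 0.0166). It shares its locus and strand with MRPS6, a mitochondrial ribosomal protein gene, at 11.8–12.5 FPKM in parental and 13.9–16.2 FPKM in resistant libraries, and the division of reads between them is uncertain. SLC5A6 (SMVT), the carrier of biotin and pantothenate, was at 22.0, 23.6 and 18.6 FPKM against 18.2, 15.3 and 21.4 FPKM, groups that overlapped (interval of the log2 fold change −0.61 to 0.15). SLC5A12, a sodium-coupled lactate carrier, was at 0.0619, 0 and 0.385 FPKM against 0.283, 0.298 and 0.378 FPKM and did not pass with all libraries (limma adjusted p = 0.234), whereas without parental replicate 2 its adjusted p was 0.049. The 5 members not tested, SLC5A7, SLC5A8, SLC5A9, SLC5A10 and SLC5A11, stayed at or under 0.234 FPKM in every library. Of these SLC5A8, a sodium-coupled carrier of short monocarboxylates, was at 0 in all parental libraries and at 0.0602–0.0723 FPKM in the resistant libraries, which is 1 or a few reads. Over the family 7 genes were tested, with 3 higher and 1 lower, beside 22.1% and 22.3% of all tested genes. The family sum was 30.3–35.6 FPKM in parental and 31.1–39.5 FPKM in resistant libraries.

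Each of the 12 tested SLC16 members passed the threshold, 4 higher and 8 lower, against 44.4% of all tested genes in either direction. Beyond the lactate carriers, SLC16A10 (TAT1, chr6:111087503-111231194), which carries aromatic amino acids, fell from 11.1, 8.09 and 10.3 FPKM to 5.80, 6.17 and 6.47 FPKM (log2 fold change −0.66, SE 0.16, limma with Benjamini-Hochberg adjustment, adjusted p = 0.0148). Its groups did not overlap.

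SLC16A9 (chr10:59650764-59736002), linked to carnitine and creatine transport, fell 8.15-fold from 3.10, 5.39 and 3.44 FPKM to 0.538, 0.418 and 0.507 FPKM (log2 fold change −2.76, SE 0.30, limma with Benjamini-Hochberg adjustment, adjusted p = 5.81e-04). SLC16A6 (MCT7, chr17:68267026-68291267), a ketone body carrier, fell from 9.48, 8.91 and 9.34 FPKM to 2.12, 1.91 and 2.12 FPKM, 4.51-fold lower (adjusted p = 8.68e-05). SLC16A13 (chr17:7036015-7040117) fell from 2.49, 2.53 and 3.02 FPKM to 0.577, 0.631 and 0.407 FPKM, 4.98-fold lower (adjusted p = 0.00115). In these 3 genes the lowest parental library was several times the highest resistant one. SLC16A14 (chr2:230034982-230068993), an orphan carrier, was closer to the threshold at 13.3, 9.98 and 12.4 FPKM against 7.08, 7.65 and 9.37 FPKM (log2 fold change −0.56, SE 0.17, limma adjusted p = 0.0347). Without parental replicate 0 or 2 or resistant replicate 0 or 1 its adjusted p was 0.0949 to 0.106. SLC16A4 (chr1:110362851-110391082), another orphan, rose from 0.161, 0 and 0 FPKM to 1.51, 1.49 and 1.33 FPKM (log2 fold change 3.48, SE 0.49, limma adjusted p = 0.00184). SLC16A11, listed at 0 in the parental libraries, was at 0.718, 0.483 and 0.396 FPKM in the resistant ones (adjusted p = 0.00303). SLC16A5 and SLC16A12 were each above 0 in a single resistant library, at 0.132 and 0.0293 FPKM, and were not tested. The SLC16 family sum was 285, 269 and 366 FPKM in parental and 117, 108 and 110.4 FPKM in resistant libraries, 2.75-fold lower.

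The 7 carriers named here that rose were at or under 0.594 FPKM in every parental library. A carrier near 0 in the parental cells entered the test only if its resistant values brought the mean over libraries to 0.1 FPKM. Such a carrier could only be called higher, so this filter partly fixed any link of direction with level, which was not tested. Of the 9 carriers with a mean of at least 10 FPKM in either group, a level chosen after the values were seen, 0 rose in limma (also 0 at an unadjusted p under 0.05), 6 fell and 3 did not pass, where 26.4% of the 9935 genes at that level rose and 31.9% fell. SLC16A8, at a mean of 9.36 FPKM in the resistant cells, lay just under that level. Every one of the 41 carriers was above 0 in at least 1 library. In the parental libraries 27, 28 and 30 of them were above 0, and in the resistant libraries 38, 32 and 32. Listed at 0 throughout the parental group were 9 carriers, against 17.5% of the genes above 0 in any library, and throughout the resistant group SLC2A9 and SLC5A9, against 8.62%.

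Several carriers lie beside or across other genes, and the neighbours were read from the same libraries. The labels name both a TruSeq V2 and a TruSeq Stranded kit and nothing states whether the counting used strand, so reads of genes that overlap on opposite strands may have been divided wrongly. SLC16A8 lies 468 bases from BAIAP2L2 on the same strand. BAIAP2L2, a membrane-curving protein gene, was at 0.190, 0.165 and 0.356 FPKM against 5.73, 6.63 and 6.60 FPKM, a log2 difference of 4.29 (SE 0.30, limma with Benjamini-Hochberg adjustment, adjusted p = 1.03e-04). PICK1, 2433 bases away on the other side and on the opposite strand, was at 32.1–34.5 against 31.0–38.5 FPKM and did not pass. Thus SLC16A8 and the neighbour on its own strand were both near 0 in the parental and above 5 FPKM in the resistant libraries.

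SLC16A13 and SLC16A11 lie 1504 bases apart on opposite strands of chromosome 17 and moved in opposite directions. On the far side of SLC16A13, 5725 bases away, BCL6B, a transcriptional repressor gene, was at 0.0326, 0.0183 and 0 FPKM in parental and 6.26, 5.88 and 8.19 FPKM in resistant libraries (log2 fold change 5.87, limma adjusted p = 3.75e-05). SLC16A6 overlaps ARSG, a lysosomal sulfatase gene on the opposite strand, which fell from 28.6, 32.4 and 30.7 FPKM to 7.56, 10.1 and 11.3 FPKM (adjusted p = 3.91e-04). WIPI1, an autophagy gene beyond ARSG, fell as well, from 9.06–15.8 to 2.86–3.70 FPKM. SLC16A1 and SLC16A3 each overlap a gene on the opposite strand that fell with them. SLC16A1-AS1 fell from 4.44–6.57 to 0.883–1.37 FPKM, and CSNK1D, a casein kinase gene, from 88.0–98.9 to 43.0–49.6 FPKM. For other carriers the overlapping gene went elsewhere. ATRAID, across SLC5A6, rose from 70.3–73.1 to 131–148 FPKM, and C16orf58, across SLC5A2, fell from 51.8–53.0 to 32.0–36.5 FPKM while SLC5A2 rose. YBX2, which ends 6 bases from SLC2A4 on the opposite strand, rose from 1.21–3.17 to 14.3–16.8 FPKM.

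**Figure D4:**
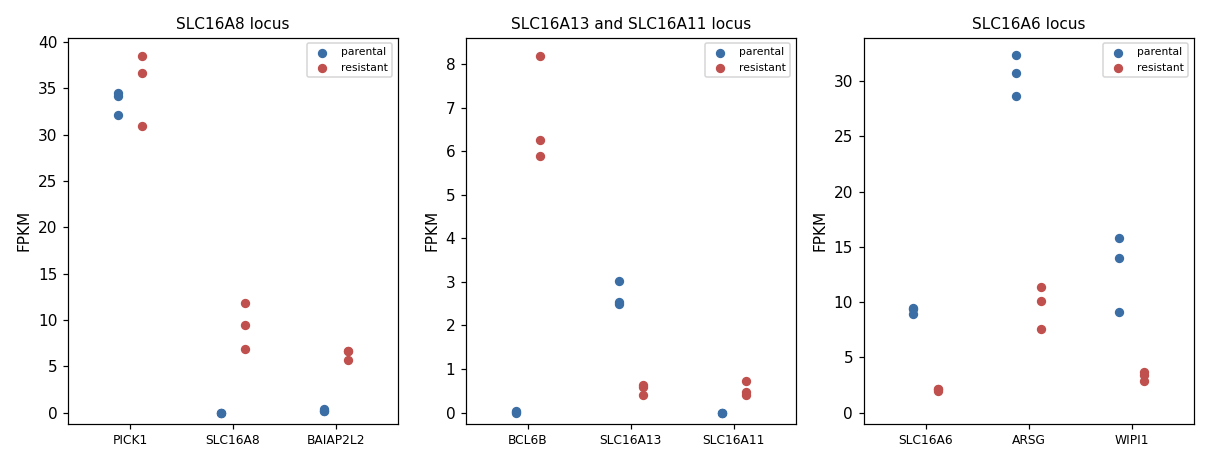
FPKM per library (parental blue, resistant red) of carriers and the genes beside them at 3 loci. BAIAP2L2 and BCL6B are near 0 in blue and between 5.73 and 8.19 FPKM in red, PICK1 overlaps between groups, and ARSG and WIPI1 sit lower in red together with SLC16A6.

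The genes that work with the carriers were followed through 54 partners in 4 lists, of which 51 were tested, with 9 higher and 23 lower, against the 22.1% and 22.3% given above. Among 11 tested genes of carrier chaperones and uptake control, 2 rose and 7 fell. BSG, the chaperone of SLC16A1 and SLC16A3, fell from 568, 517 and 638 FPKM to 393, 406 and 402 FPKM (log2 fold change −0.51, SE 0.09, limma with Benjamini-Hochberg adjustment, adjusted p = 0.00374). The decrease was smaller than those of SLC16A1 and SLC16A3, a difference between genes that was not tested. The ratio of BSG to the sum of the 4 lactate carriers, SLC16A7 and SLC16A8 included, was 1.95–2.32 in parental and 4.08–4.69 in resistant libraries. EMB, the chaperone of SLC16A7, fell from 27.3, 34.0 and 27.4 FPKM to 20.8, 23.0 and 24.0 FPKM at an adjusted p of 0.0400 in limma, and without any single library its adjusted p was 0.0558 to 0.114. TXNIP, which draws SLC2A1 off the cell surface, rose from 96.1, 97.2 and 114 FPKM to 263, 272 and 322 FPKM (log2 fold change 1.48, SE 0.11, adjusted p = 1.36e-04 in limma). ASPSCR1, a tether of SLC2A4 vesicles, fell from 41.4–42.9 to 23.3–25.6 FPKM (adjusted p = 3.67e-04 in limma). SLC16A1 and SLC16A3 thus fell at the transcript level together with their chaperone BSG. SLC2A1 fell while TXNIP rose, but ARRDC4, of the same list, did not pass (log2 fold change 0.26, adjusted p = 0.283 in limma). Any link between these changes was not tested.

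Of 20 tested genes that make or use lactate and pyruvate, 3 rose and 8 fell, beside 22.1% and 22.3% of all tested genes. LDHA, the lactate dehydrogenase subunit that favours lactate, fell from 832, 777 and 880.5 FPKM to 249, 263 and 342 FPKM (log2 fold change −1.56, SE 0.13, limma with Benjamini-Hochberg adjustment, adjusted p = 2.16e-04). LDHB, the subunit that favours pyruvate, was at 613, 515 and 658 FPKM against 746, 748 and 705 FPKM (log2 fold change 0.31, adjusted p = 0.0468 in limma). The LDHB call passed with all libraries and without parental replicate 2, and its adjusted p was 0.053 to 0.127 without any other single library. The ratio of LDHA to LDHB was 1.36, 1.51 and 1.34 in parental and 0.333, 0.352 and 0.486 in resistant libraries. MPC2, a subunit of the mitochondrial pyruvate carrier, fell from 461, 406 and 427 FPKM to 122, 123 and 125 FPKM (log2 fold change −1.80, SE 0.07, adjusted p = 1.26e-05 in limma). Its partner subunit MPC1 was at 22.8, 20.2 and 22.6 FPKM against 12.6, 19.7 and 14.6 FPKM and did not pass (adjusted p = 0.0578 in limma), whereas without resistant replicate 1 its adjusted p was 0.0112. ME1, the malic enzyme that makes cytosolic pyruvate, fell from 24.2–27.4 to 3.42–3.91 FPKM (adjusted p = 1.96e-05 in limma). Besides LDHB, the genes that rose were PDK4 and LDHC. PDK4 went from 0, 0.0941 and 0.435 FPKM to 3.74, 3.98 and 4.26 FPKM (adjusted p = 0.00207 in limma). PDK1, of the same gene family, fell from 37.8–43.3 to 12.8–17.3 FPKM (adjusted p = 3.18e-04 in limma). LDHC, listed at 0 in every parental library, was at 0.256–0.324 FPKM in the resistant ones.

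Of 10 tested genes that trap or convert sugars, 3 rose and 4 fell, and of 10 tested regulators 1 rose and 4 fell, again beside 22.1% and 22.3% of all tested genes. SORD, which turns sorbitol into fructose, fell 12.1-fold from 211, 204 and 217 FPKM to 16.8, 17.7 and 17.6 FPKM (log2 fold change −3.59, SE 0.07, limma with Benjamini-Hochberg adjustment, adjusted p = 1.37e-06). The hexokinases HK1 and HK2, which phosphorylate incoming glucose, fell from 73.3–84.6 to 44.7–52.0 FPKM and from 24.6–27.7 to 14.7–18.8 FPKM. ISYNA1, the enzyme of inositol synthesis, rose from 53.3–55.5 to 79.9–91.0 FPKM, while the inositol carrier SLC5A3 fell. The regulators that fell included MLX (36.6–48.6 to 26.4–28.5 FPKM) and PPARGC1B (8.58–10.1 to 6.15–6.64 FPKM). The regulator that rose was ARNT, from 15.1–20.7 to 21.9–27.5 FPKM (adjusted p = 0.0407 in limma). HIF1A, a regulator of SLC2A1 and SLC16A3 under low oxygen, had a 95% interval of the log2 fold change from −0.42 to 0.26. EPAS1, at 0.749–2.00 against 1.66–4.90 FPKM, did not pass (adjusted p = 0.0627 in limma). These transcript levels give no measure of protein.

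**Figure D5:**
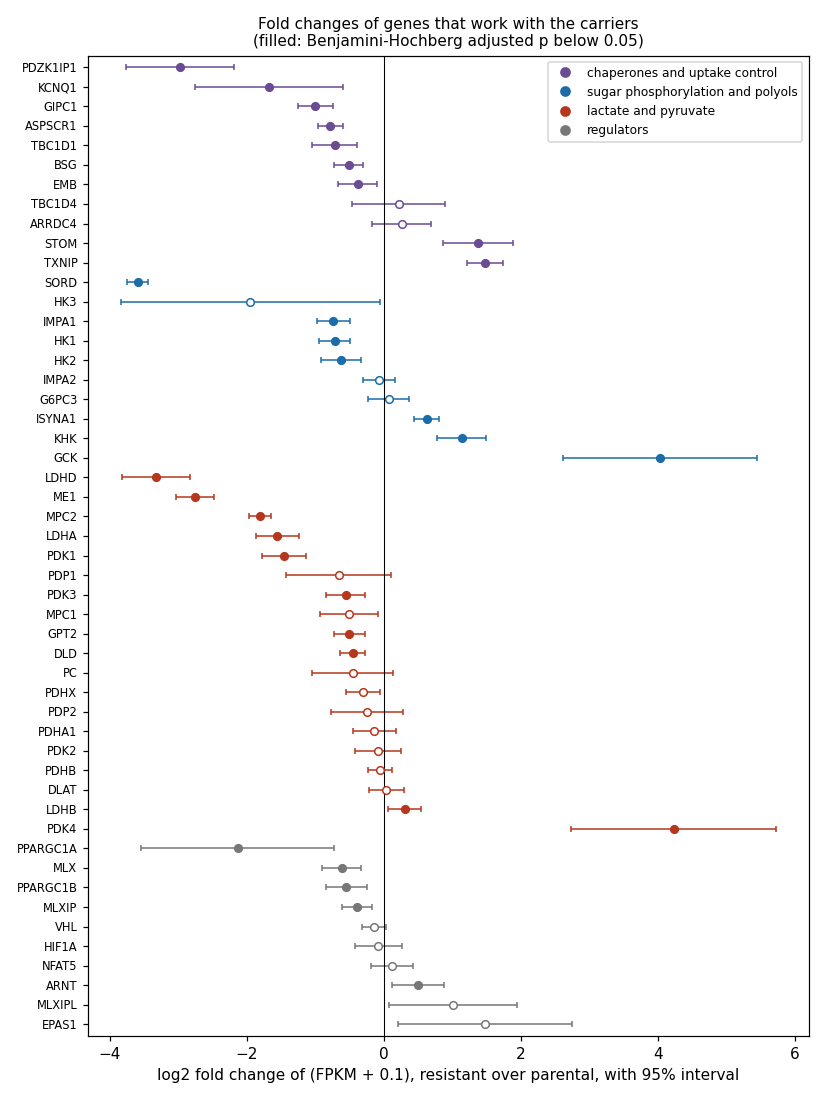
Log2 fold change of FPKM + 0.1, resistant over parental, with its 95% interval, for tested partner genes above 0 in both groups, coloured by list and filled where the adjusted p was below 0.05. SORD at −3.59, MPC2 at −1.80 and LDHA at −1.56 lie to the left with narrow intervals, and TXNIP lies to the right at 1.48.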

How the data were processed

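RNA-Seq (50 bp single-end reads) of 3 parental and 3 resistant C4-2B libraries was analysed from 1 deposited table of 58024 genes. The authors made its FPKM values with TrimGalore 0.4.3, STAR 2.5.3, GRCh38, GENCODE 25 and Cufflinks 2.2.1, as the study's methods state, whereas the submitters' processing notes name Trimmomatic 0.27, FastQC 0.10.1 and a mouse build, although the genes are human. Positions came from GENCODE 44, which matched 56980 gene IDs, all 41 carriers included. Genes that averaged 0.1 FPKM or more across the 6 libraries (24468) were tested on log2(FPKM + 0.1) by limma 3.58.1 (R 4.3.3, lmFit and eBayes with a variance trend, two-sided), resistant minus parental, with Benjamini-Hochberg adjustment over all of them and a threshold of 0.05, after the fit was tested on simulated data. Read counts were not analysed here. The carriers, partner lists, markers and motifs were chosen with earlier results of these data known, so no list was tested as a set. Values by library are given for carriers past the threshold with a group mean of at least 1 FPKM, and class I and lactate carriers. The 2 most significant genes of each partner list plus 9 set ones are given by library or as a range. Others named were chosen after their values were seen. Protein sequences were not used here, and 1 carrier and 1 luminal marker enter the counts but are not reported here by name. No 2 libraries were identical. The alternatives were 2 other pseudocounts, 2 other filters, 3 other scalings, no variance trend, a 2-fold rule, a replicate block and leaving out each library.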

Additional observations from a re-analysis of the deposited data

How the results depend on the processing

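Of 44 single-gene results for the tested carriers and the partners named by rule, 23 kept their side of the threshold under every alternative, and 21 changed it under at least 1. Under the 2-fold rule, which adds a demand on size and leaves the adjusted p as it was, 14 of the 44 changed. No called gene among these 44 turned its direction. SLC2A11 and SLC2A8, which did not pass, ran from −0.35 to 0.02 and from −0.06 to 0.11 (log2 fold change) on leaving out 1 library. The number of carriers higher was 8, and 5 with a mean of at least 1 FPKM required. The number lower was 13, and 8 where a 2-fold change was also required, a rule that took the partner genes lower from 23 to 10. The median log2 fold change of the carriers was −0.23, but −0.56 with the mean of at least 1 FPKM and 0.0212 with no filter, when all 41 were included. Leaving out 1 library at a time gave 6 to 7 carriers higher, 10 to 13 lower, a median of −0.43 to −0.32, and 7 to 10 partners higher and 20 to 22 lower. Deviations of libraries with the same number in the labels had correlations of 0.00802, 0.0165 and −0.00301, and not every library correlated best with its own number. The values thus gave no sign of pairing, but they cannot show whether libraries with equal numbers were handled together. With a replicate block, 6 carriers were higher and 10 lower, 9 partners were higher and 21 lower, and SLC2A3, SLC5A2, SLC5A4, SLC16A7, SLC16A14, EMB and LDHB missed the threshold. Quantile normalization gave 7 carriers higher and 13 lower, upper quartile scaling 8 and 13, and removal of 6494 short RNAs with rescaling 8 and 14, and EMB missed the threshold under all 3, as well as with no filter or no variance trend. SLC5A2 also missed the threshold with pseudocounts of 0.01 or 1 FPKM, no filter or no variance trend, SLC5A4 with a pseudocount of 1 FPKM or quantile normalization, SLC16A14 with no variance trend, and LDHB with a pseudocount of 1 FPKM, no filter or no variance trend. Without the trend SLC5A1 had an adjusted p of 0.0334, and with the filter of 1 FPKM MPC1 had one of 0.0481, both by limma. The depth, estimated from the values, leaves carriers under about 0.1 FPKM at a few reads.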
